A study of Mus musculus with 3 samples.

Results

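The chromatin accessibility of 44 genes of the BMP and TGF-beta signalling pathways was followed in mesenchymal progenitors of the mouse forelimb at 3 embryonic stages. The genes were listed by name, and the list holds 14 ligands, 13 receptors, 8 Smads and 9 extracellular binding proteins. A gene was represented by the called peaks that meet its body or the 2000 bp upstream of it (genome build mm10). All 44 had a value in every library, among 16383 protein-coding genes on chromosomes 1 to 19 and X that had one.

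Nuclei were profiled by droplet-based single-nucleus ATAC-seq, in which a transposase inserts adapters where chromatin is accessible and each cut is counted per nucleus. Stages were E12.5, E14.5 and E16.5 (E, embryonic day), with 1 library each. All 3 came from tdTomato-positive progenitors of Hic1CreERT2/CreERT2;Rosa26LSLtdTomato/tdTomato embryos on the C57BL/6J background, in which CreERT2 is knocked into both copies of Hic1 and tamoxifen switches on tdTomato in Hic1-expressing cells and their progeny. Dams received 7.5 mg tamoxifen in 300 uL sunflower oil by gavage in mid-gestation, before the first stage sampled. Cells carrying CD45, CD117, CD31, CD11b, F4/80 or Ter119 were removed in the sort. Male and female embryos were pooled. The E12.5 and E14.5 libraries were made from forelimbs and the E16.5 library from a segment around the elbow joint. E12.5 limbs were digested with Dispase and the later ones with Collagenase A and Pronase. Stage therefore cannot be told apart from library, and at its ends not from dissected segment or digestion either.

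BMPs, activins and TGF-betas are secreted dimers that assemble type I and type II receptor kinases on the cell surface. BMP receptors phosphorylate Smad1, Smad5 and Smad9, whereas TGF-beta and activin receptors phosphorylate Smad2 and Smad3. Both classes enter the nucleus with the shared partner Smad4. Smad6 and Smad7 are inhibitors that the pathway itself induces. Secreted antagonists such as Noggin and Gremlin 1 trap BMPs, and latent TGF-beta binding proteins tether TGF-beta in the matrix. In the limb these signals act in digit and joint patterning, in cartilage and tendon formation and in muscle growth.

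The libraries held 8294, 20023 and 14048 nuclei, in order of stage, and values below keep that order where 3 are given. The median cut count per nucleus was 6003.5, 8575 and 26694, and the totals were 87048167, 204289151 and 413425059 counts. Peaks had been called in each library by itself, and the called sequence covered 156 Mb, 81.5 Mb and 193 Mb. Levels below are cut counts in a gene's peaks within regions that all 3 lists share, divided by the counts in shared autosomal regions and multiplied by 1000000 (CPM). Levels of Hic1, Pdgfra and the muscle, blood and endothelial genes set beside members are instead summed over each library's own peaks, with the same divisor. Shared regions held 86.5%, 97.7% and 81.7% of the counts, so these levels and those of members are not on the same scale. They describe how much open chromatin a gene had, not how much RNA it made, and a long gene collects more peaks than a short one, so levels are compared between stages and not between genes. With 1 library per stage no test was possible. A log2 ratio of 0.5 or more in size was called higher or lower, and brackets give 95% intervals that cover counting error only. In bulk values of this kind, fewer nuclei of a type and less accessibility per nucleus cannot be told apart. Peaks at the sort's own driver Hic1 stood at 143, 96.3 and 119 CPM and those at the mesenchymal gene Pdgfra at 149, 166 and 159 CPM. Start site peaks were counted within shared regions alone, so 1 called in fewer than 3 libraries would be missed. Among genes of sorted-out cells, the blood genes Ptprc and Spi1 and the endothelial gene Pecam1 had no such peak. Others had 1, with 41.9, 2.79 and 48.8 CPM at the start site of the blood gene Cd68, 10.4, 26.7 and 21.5 CPM at that of the endothelial gene Tek and 30.4, 40.0 and 26.1 CPM at that of Kdr.

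Over the 44 members, accessibility at E16.5 was close to that at E12.5, with a median log2 ratio of -0.08 against 0.00457 over all genes. Between those stages 6 members were called higher and 7 lower, where 9.58% of all genes were higher and 11.0% lower. From E12.5 to E14.5, 6 were higher and 6 lower (12.2% and 9.11% of all genes), with a median of 0.06 for the members and 0.153 for all genes. With median-ratio scaling 1 was higher in that step (4.3% of all genes). From E14.5 to E16.5, 2 were higher and 5 lower (8.67% and 9.32% of all genes), with a median of -0.12 against -0.176. The shares of members called were thus near those of all genes, and the list as a whole did not move one way. Of the 44, 23 kept the sign of their E16.5 to E12.5 ratio under every way of processing tried, and 3 of them, Smad9, Mstn and Grem1, stayed lower by at least 0.5 in all that gave a value (10 for Smad9 and Grem1, and 9 for Mstn). On the main scale Mstn and Grem1 each rest on 1 peak matched in all 3 lists. Alternatives that only select among shared peaks gave the same value or none there, so the stability of Mstn and Grem1 was partly fixed in advance.

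**Figure D1:**
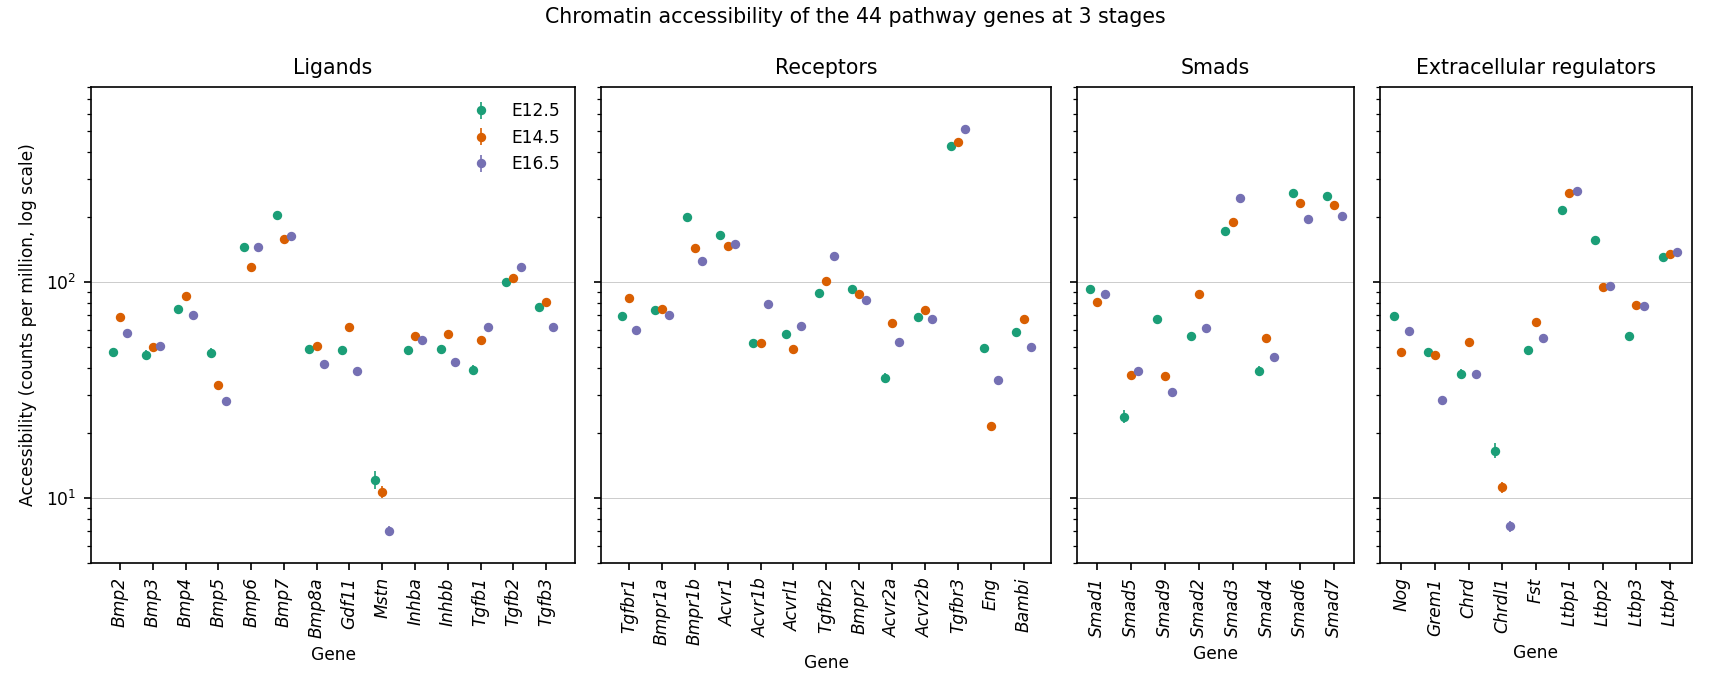
Accessibility of the 44 members in CPM on a log axis, with 1 panel per role group and genes along the horizontal axis. Each point is 1 library, coloured by stage and without a replicate, and bars are 95% Poisson intervals. For most genes the 3 points lie close together, while Smad9 goes from 67.0 to 31.0 CPM, Chrdl1 from 16.5 to 7.37 CPM and Smad5 from 23.7 to 38.5 CPM.

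Among the ligands, Bmp5 and Mstn were lower at E16.5 than at E12.5 and Tgfb1 was higher; the other 11 stayed under the call. Bmp5, a BMP required for parts of the skeleton and the external ear, had 47.1, 33.2 and 27.9 CPM from the first to the last stage. Its level was highest in the first library, and the E16.5 to E12.5 log2 ratio was -0.75 [-0.83, -0.67]. Across the ways of processing this ratio ran from -1.23 to -0.41. Mstn encodes myostatin, the activin-class ligand that limits muscle growth, and had 12.1, 10.7 and 7.02 CPM (-0.78 [-0.94, -0.62]), the lowest ratio of any ligand. Over each library's own peaks the 4 muscle genes Myod1, Myf5, Pax7 and Myog summed to 100 CPM at E12.5, 41.4 CPM at E14.5 and 57.0 CPM at E16.5. In shared regions 2, 3 and 3 of them had no peak at the start site. The part of these muscle genes in the Mstn values was not tested.

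Tgfb1, the TGF-beta most studied in matrix production and immune control, had 39.0, 53.6 and 61.8 CPM, with an E16.5 to E12.5 ratio of 0.66 [0.58, 0.74]. Its start site peak, which also reaches the neighbouring gene B9d2 and held 82.8%, 90.5% and 74.6% of the counts, stood at 32.3, 48.5 and 46.1 CPM. Peaks that reach no other gene gave -0.40 from E12.5 to E14.5 and 1.22 from E12.5 to E16.5. Under other processing the ratio stayed positive but ranged from 0.0652 to 1.22, so its size depends on which peaks are counted. Tgfb1 is also active in blood cells, and over each library's own peaks the blood genes Ptprc, Spi1 and Cd68 summed to 102, 42.6 and 87.9 CPM. In shared regions Cd68 was the only 1 of the 3 with a peak at its start site. The part of these blood genes in the Tgfb1 values was not tested. Tgfb2 had 100, 104 and 117 CPM (0.22) and Tgfb3 76.8, 81.1 and 61.7 CPM (-0.32).

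Of the remaining ligands, Bmp2 and Gdf11 were called in steps that involve the E14.5 library. Bmp2, a driver of cartilage and bone formation, had 47.2, 69.0 and 57.7 CPM, and its E14.5 to E12.5 ratio was 0.55. Under other processing that ratio was as low as 0.39, under the call. Gdf11, a relative of myostatin that sets positional identity along the body axis, had 48.2, 61.6 and 38.5 CPM and was lower at E16.5 than at E14.5 by a log2 ratio of -0.68. The same step gave -0.60 for Mstn, -0.44 for Inhbb and -0.06 for Inhba, against a median of -0.18 over all genes. Of these 4 activin and GDF ligands Gdf11 and Mstn were called lower, and the Inhba ratio was above 0 in 3 of the other ways of processing. Levels of Inhbb were 48.8, 57.6 and 42.4 CPM and those of Inhba 48.1, 55.9 and 53.8 CPM; both encode activin and inhibin beta chains. The other BMP genes ran from -0.32 to 0.13 between the first and last stage. Bmp3 had 46.1, 49.7 and 50.5 CPM and Bmp4, which acts in limb bud outgrowth and cell death, 74.7, 86.3 and 70.3 CPM. Bmp6 had 145, 118 and 145 CPM, Bmp7 204, 159 and 163 CPM, and Bmp8a 48.6, 50.7 and 41.6 CPM. None of these 5 reached the call in any step.

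Of the 13 receptors, 3 were called higher and 1 lower at E16.5 than at E12.5 (9.58% and 11.0% of all genes). Acvr1b, a type I receptor for activin, had 52.1, 52.2 and 78.9 CPM, flat and then higher, with an E16.5 to E12.5 ratio of 0.60. Per kb of called width that ratio was -0.38, against -0.19 for the median gene on the same scale, and in matched regions and at start sites it was 0.30 and 0.38, under the call. Tgfbr2, the type II receptor that binds TGF-beta, had 88.5, 101 and 132 CPM (0.58), and per kb of called width -0.10, which lies above that median gene. In matched regions it was 0.21 and at start sites 0.18, both under the call. Acvr2a, a type II receptor for activins and BMPs, had 35.8, 64.2 and 52.9 CPM, with its highest level at E14.5 and an E16.5 to E12.5 ratio of 0.56. Its start site peaks gave 0.70. Matched in position in all 3 lists was 1 small region away from the start, which had 4.34 CPM at E12.5 and a ratio of -0.23 with an interval that includes 0.

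Bmpr1b, the BMP receptor needed for cartilage condensations of the digits, had 199, 144 and 125 CPM. It was the only receptor called lower at E16.5, with a ratio of -0.67. Over each library's own peaks that ratio was -0.498, per kb of called width -0.36 and at start sites -0.10. Bmpr1a, its close relative, stayed at 73.8, 74.7 and 69.9 CPM (-0.08), but ranged from -1.22 to 0.22 under other processing. Acvr1, a type I BMP receptor, had 164, 147 and 149 CPM (-0.14), Bmpr2, the type II BMP receptor, 92.3, 88.0 and 82.1 CPM (-0.17), and the activin receptor gene Acvr2b 68.7, 74.3 and 67.2 CPM (-0.03). Tgfbr1, the type I partner of Tgfbr2, had 69.2, 84.3 and 59.8 CPM (-0.21); per kb of called width it was at -0.09, close to Tgfbr2.

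Eng encodes endoglin, an accessory receptor best known in endothelium, and had 49.3, 21.4 and 34.9 CPM. It had the most negative E14.5 to E12.5 ratio of all members (-1.20) and then 0.70 from E14.5 to E16.5. At its start site alone the values were 2.78, 3.49 and 10.9 CPM, an increase. Acvrl1, the endothelial type I receptor that works with endoglin, had 57.5, 48.8 and 62.2 CPM (0.12). Both spanned 0 widely under other processing, from -1.48 to 1.97 for Eng and from -1.33 to 1.18 for Acvrl1. Over each library's own peaks the endothelial genes Pecam1, Cdh5, Tek and Kdr summed to 136, 127 and 207 CPM, and Cdh5 alone had 6.04, 1.13 and 17.7 CPM. Of these 4 genes, 2, 2 and 1 lacked a start site peak in shared regions, in order of stage. Their part in the Eng and Acvrl1 values was not tested. Tgfbr3, which encodes betaglycan, a co-receptor for TGF-beta2 and inhibin, had 428, 446 and 511 CPM (0.26), and the pseudoreceptor Bambi 58.5, 67.5 and 50.1 CPM (-0.22).

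Smad9, the least studied of the BMP-regulated Smads, had 67.0, 36.6 and 31.0 CPM, so that both later libraries lay well under the first. Its E16.5 to E12.5 ratio was -1.11 [-1.18, -1.04] and stayed between -1.20 and -0.91 under every way of processing. Smad5, which carries the same BMP signal, moved the other way, with 23.7, 37.1 and 38.5 CPM and a ratio of 0.70 [0.59, 0.80] that ranged from 0.36 to 0.83. Smad1, the other gene of that class, had 93.1, 80.4 and 88.1 CPM (-0.08). The BMP-regulated Smads therefore did not change as a block.

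Most of the Smad9 signal lay in 1 peak at its start site, which matched in all 3 libraries and had 52.0, 28.9 and 22.6 CPM (-1.20 [-1.28, -1.12]). The 250 bases before that start site are shown because they lie within this peak (RefSeq sequence of GRCm38.p6, which is mm10, chr3:54755332-54755581, plus strand, 5′ to 3′). Capitals mark GGCGCC, the GC-rich letters bound by BMP-regulated Smads. The base composition is 73.2% G and C.
Smad9: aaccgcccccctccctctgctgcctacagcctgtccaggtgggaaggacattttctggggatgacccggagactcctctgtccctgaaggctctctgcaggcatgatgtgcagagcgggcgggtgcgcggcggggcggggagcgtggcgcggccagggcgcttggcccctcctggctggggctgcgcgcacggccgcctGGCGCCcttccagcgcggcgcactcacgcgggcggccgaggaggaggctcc

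Smad3, which carries TGF-beta and activin signals, had 172, 189 and 246 CPM, rising in order, and was called higher at E16.5 (0.51). The ratio was under the call in 4 alternatives, at 0.16 per kb of called width, 0.17 in matched regions, 0.47 with 10000 bp upstream and -0.10 at start sites. Smad2, of the same class, was highest in the E14.5 library with 55.9, 88.0 and 61.2 CPM (0.65 and then -0.52). The common partner Smad4 had 38.6, 55.0 and 44.9 CPM (0.51 and then -0.29). Under other processing the E14.5 to E12.5 ratios were as low as 0.494 for Smad2 and 0.35 for Smad4, under the call. At start sites the median gene also went up and then down (0.26 and -0.277). The inhibitors Smad6 and Smad7, which BMP and TGF-beta signals induce as feedback, had 259, 231 and 196 CPM and 250, 227 and 202 CPM. Neither reached the call, at -0.41 and -0.31, but both kept a negative E16.5 to E12.5 ratio in every processing. It lay between -0.97 and -0.31 for Smad6 and between -0.64 and -0.18 for Smad7. On the main scale both were lower at each later stage, but the single steps changed sign under other processing. Smad6 and Smad7 reached 0.31 and 0.72 from E12.5 to E14.5, and 0.13 and 0.12 from E14.5 to E16.5.

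Of the 9 extracellular regulators, 3 were called lower and 0 higher between E12.5 and E16.5 (11.0% and 9.58% of all genes), and of these 3 Grem1 alone stayed past the call under every processing. Grem1 rests on 1 matched peak, so several of these alternatives could not move it. Chrdl1, a chordin-like BMP antagonist on the X chromosome, had 16.5, 11.2 and 7.37 CPM, and its ratio of -1.17 was the lowest of all members. Other processing gave -1.53 to -0.0179. Ltbp2, a matrix protein of the latent TGF-beta binding family, had 156, 94.5 and 96.1 CPM (-0.70). The peaks at its start site gave 0.34 instead, so the lower level lay within the gene body. Ltbp1 had 215, 259 and 264 CPM (0.30), Ltbp3 56.1, 78.3 and 77.0 CPM (0.46) and Ltbp4 130, 135 and 137 CPM (0.08). Per kb of called width, where the median gene was at -0.19, these 3 were at -0.31, -0.14 and -0.23. Ltbp1 was at -0.07 at its start sites and Ltbp4 at -0.34 in matched regions, while Ltbp3 was above 0 in all alternatives but the one per kb.

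Grem1, the BMP antagonist that links the limb's signalling centres, had 47.2, 45.9 and 28.2 CPM. Its E12.5 and E14.5 levels were alike (-0.04), and the E16.5 library was lower than E14.5 by -0.70, the lowest ratio of any member in that step. The E16.5 to E12.5 ratio was -0.74 [-0.82, -0.66], between -1.14 and -0.64 under other processing. Nog, which encodes Noggin, had 69.5, 47.1 and 59.3 CPM, lower at E14.5 (-0.56). This rests on 1 peak that was called 6539, 2688 and 6603 bp wide, and per kb of that width Nog was highest at E14.5 (0.72, against 0.50 for the median gene). Chrd, which encodes Chordin, was highest at E14.5 with 37.3, 52.9 and 37.5 CPM (0.50 and then -0.50). Its E14.5 to E12.5 ratio was as low as 0.28 under other processing. The activin antagonist Fst had 48.3, 65.4 and 55.0 CPM (0.19 from E12.5 to E16.5).

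The Grem1 start site also carries the GC-rich letters. The 250 bases before it are shown beside those of Smad9 (GRCm38.p6, chr2:113758649-113758898, minus strand). Both decreases stayed past the call under every processing, which for Grem1 rests on 1 peak. Both genes have a promoter window with these letters, but so do Smad5 (0.70) and Acvr1b (0.60), which were called higher. Mstn, also past the call in every processing, had 0 such windows, so the letters do not set the decreases apart. Capitals mark CAGAC, the short Smad motif, and GGCGCC.
Grem1: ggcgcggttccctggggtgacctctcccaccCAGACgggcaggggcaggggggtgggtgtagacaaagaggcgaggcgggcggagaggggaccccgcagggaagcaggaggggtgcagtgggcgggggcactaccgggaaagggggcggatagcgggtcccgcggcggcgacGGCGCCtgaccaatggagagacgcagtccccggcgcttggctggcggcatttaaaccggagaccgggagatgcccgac

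**Figure D2:**
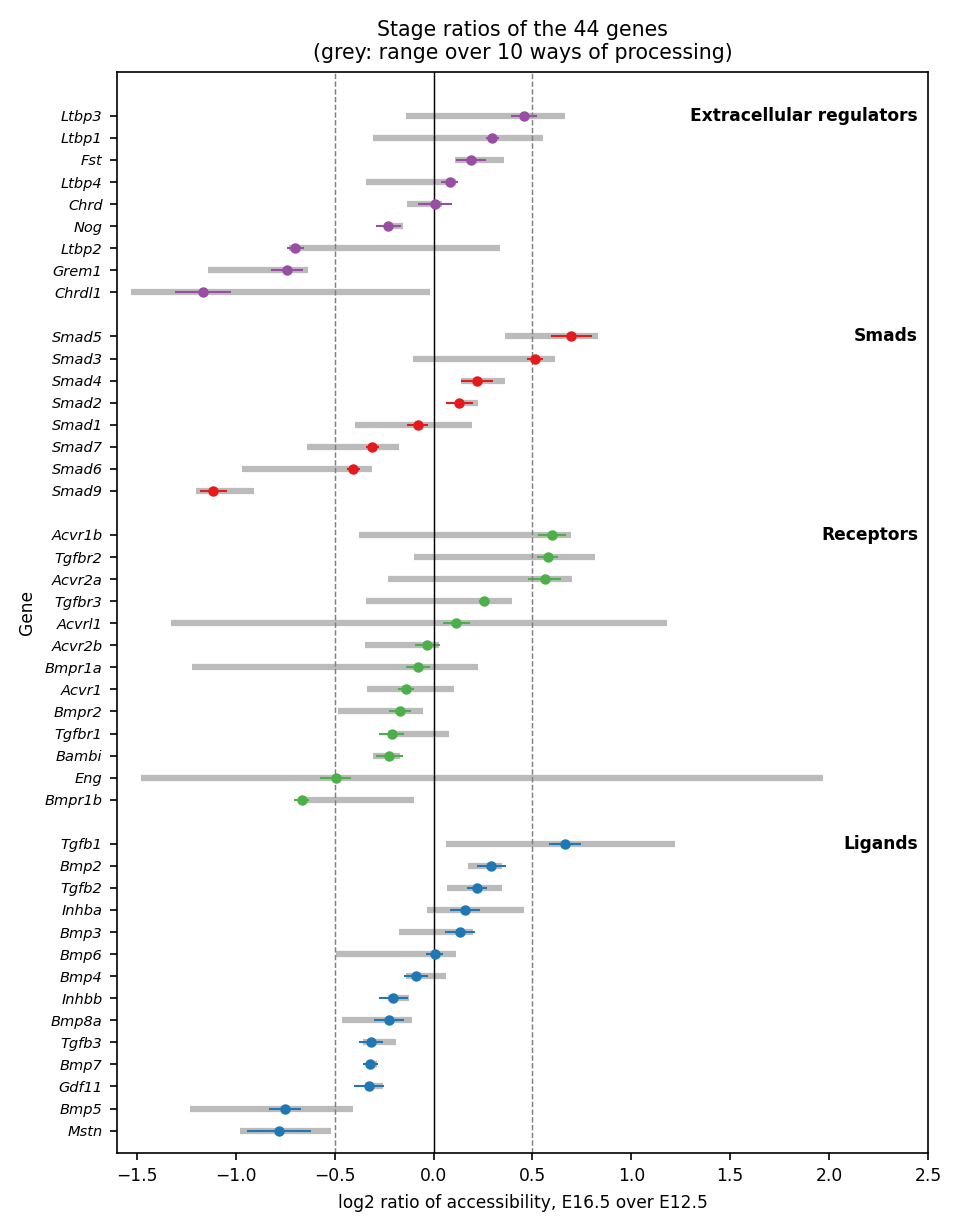
Log2 ratio of accessibility, E16.5 over E12.5, for the 44 members in their role groups. Points are the values on the main scale with 95% counting intervals, grey bars span the other ways of processing, 10 for 38 members and 9 for the other 6, which include Mstn, and dashed lines mark -0.5 and 0.5. Smad9 lies at -1.11, Grem1 at -0.74 and Mstn at -0.78 with grey bars that stay below -0.5.

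Of 46 further genes of these pathways, 45 had a value and Amhr2 had none. Their median E16.5 to E12.5 ratio was -0.04, with 6 called higher and 6 lower (9.58% and 11.0% of all genes). The 9 response genes had the lowest median, -0.27, with 4 lower and 1 higher. Id1, a direct target of BMP Smads that encodes an inhibitor of helix-loop-helix factors, had 195, 111 and 98.3 CPM (-0.99), and Id2 and Id3 were both at -0.55. Tgfbi, a TGF-beta-induced matrix gene, had 130, 86.2 and 78.0 CPM (-0.74), and Msx2, a homeobox target of BMP, was the gene called higher (0.58, but -0.74 per kb of called width). Antagonists and matrix regulators had 4 higher of 17, namely Lrrc32 (0.89), Dcn (0.89), Twsg1 (0.87) and Htra1 (0.78), and 1 lower, Chrdl2 (-0.98). Lrrc32 presents latent TGF-beta on cells, Dcn binds TGF-beta in the matrix, Twsg1 modulates BMP and Htra1 is a protease of the pathway. Among the other ligands Gdf10 was lower (-1.03) and the protease gene Bmp1 higher (0.51). Per kb of called width Dcn, Twsg1 and Bmp1 lay at -0.05, -0.06 and -0.06 and Gdf10 at 0.06, where the median gene was at -0.19, so that Dcn, Twsg1 and Bmp1 still lay above it and Gdf10 no longer lay below. Lrrc32 was at 0.15 and Htra1 at 0.32. Id1, Id2, Id3, Tgfbi and Chrdl2 stayed at -0.96, -0.56, -0.56, -1.102 and -0.59 on that scale.

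Single peaks were then compared where the 3 lists agreed on position by a reciprocal overlap of at least 50% and each library had at least 100 fragment equivalents (2 counts each). Members had 91 such regions among 39480. Between E12.5 and E16.5, 13 member regions were higher (14.3%) and 31 lower (34.1%), against 13.9% and 28.1% of all regions. The median was -0.21 for members and -0.13 for all regions. Within 1100 bp of a start site the 30 member regions had a median of -0.11, with 4 higher (13.3%) and 5 lower (16.7%), against 4.59% and 11.7% of the 11440 such regions in the genome. The 61 elsewhere had a median of -0.26, with 9 higher (14.8%) and 26 lower (42.6%), against 17.7% and 34.8% of 28040.

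In Bmpr1a and Tgfbr3, neither of which was called by its sum, regions moved in opposite directions. In the Bmpr1a gene a region 6638 bp inside a start site had 21.2, 8.98 and 3.83 CPM, the largest decrease of any receptor region (-2.47 [-2.62, -2.32]). A second Bmpr1a region had 4.81, 6.04 and 7.31 CPM and was higher (0.60). In Tgfbr3, a region 172527 bp from the start had 4.36, 8.78 and 16.2 CPM, the largest increase of any receptor region (1.88 [1.66, 2.12]). Another Tgfbr3 region, 72331 bp from the start, had 7.63, 2.78 and 1.92 CPM (-1.99), so one gene held large shifts both ways.

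Smad6 had 2 intronic regions with large decreases. One at 56165 bp from the start had 7.34, 6.04 and 1.83 CPM (-2.00), and a stronger one at 41305 bp had 51.0, 36.8 and 16.5 CPM (-1.63). Another at 62501 bp stood at 34.7, 31.3 and 29.3 CPM (-0.25). Peaks at the Smad6 start site were also lower, with 128, 87.6 and 96.1 CPM (-0.41). Smad1 held the largest increase among Smad regions, with 5.62, 8.32 and 11.6 CPM (1.051). In Bmpr1b, 4 regions away from the start sites lay at -2.01, -2.01, -1.69 and -1.48. The others there lay at -0.65, -0.56, -0.37, -0.04, -0.03 and 0.36. The region at its farthest upstream start site had 31.4, 39.0 and 23.7 CPM (-0.41), and a second start site region was lower (-0.73).

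Among ligands, both extremes were in Bmp3, a BMP that opposes bone formation. A region 13395 bp inside the gene had 9.81, 4.31 and 3.56 CPM (-1.46) and another at 21867 bp had 7.01, 12.2 and 11.2 CPM (0.67), while the region at the start was near level (-0.11). Ltbp1 gave both extremes of the extracellular group. Its region at 8900 bp had 18.6, 15.1 and 7.46 CPM (-1.31) and that at 199699 bp had 5.69, 13.1 and 16.99 CPM (1.58 [1.37, 1.78]).

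The middle 200 bases of 4 of these regions are given because they carry the largest stage changes of their groups. All lie in introns, the sequence is that of mm10 and reads 5′ to 3′ on the strand of the gene, and capitals mark CAGAC (as GTCTG on the other strand) and GGCGCC. They are chr14:34453764-34453963 on the minus strand for Bmpr1a, chr5:107117027-107117226 on the minus strand for Tgfbr3, chr9:63965760-63965959 on the minus strand for Smad6 and chr17:75378525-75378724 on the plus strand for Ltbp1.
Bmpr1a, lower with stage: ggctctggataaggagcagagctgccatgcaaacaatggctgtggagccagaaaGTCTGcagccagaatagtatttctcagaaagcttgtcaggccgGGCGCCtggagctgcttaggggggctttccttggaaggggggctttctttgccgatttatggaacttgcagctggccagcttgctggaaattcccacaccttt
Tgfbr3, higher with stage: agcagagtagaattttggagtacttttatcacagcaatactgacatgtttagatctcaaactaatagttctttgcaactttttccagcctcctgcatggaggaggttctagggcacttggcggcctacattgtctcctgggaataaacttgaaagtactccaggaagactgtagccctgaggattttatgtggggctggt
Smad6, lower with stage: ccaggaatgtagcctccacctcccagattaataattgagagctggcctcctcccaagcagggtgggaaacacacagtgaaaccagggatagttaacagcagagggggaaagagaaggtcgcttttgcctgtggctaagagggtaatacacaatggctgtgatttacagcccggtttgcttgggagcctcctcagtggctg
Ltbp1, higher with stage: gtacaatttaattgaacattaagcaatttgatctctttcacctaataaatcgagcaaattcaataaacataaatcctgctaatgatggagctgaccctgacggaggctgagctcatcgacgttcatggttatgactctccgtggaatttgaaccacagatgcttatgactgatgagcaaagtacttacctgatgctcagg
The Bmpr1a window held both short motifs and the other 3 held neither, nor did any hold the palindrome GTCTAGAC.

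**Figure D3:**
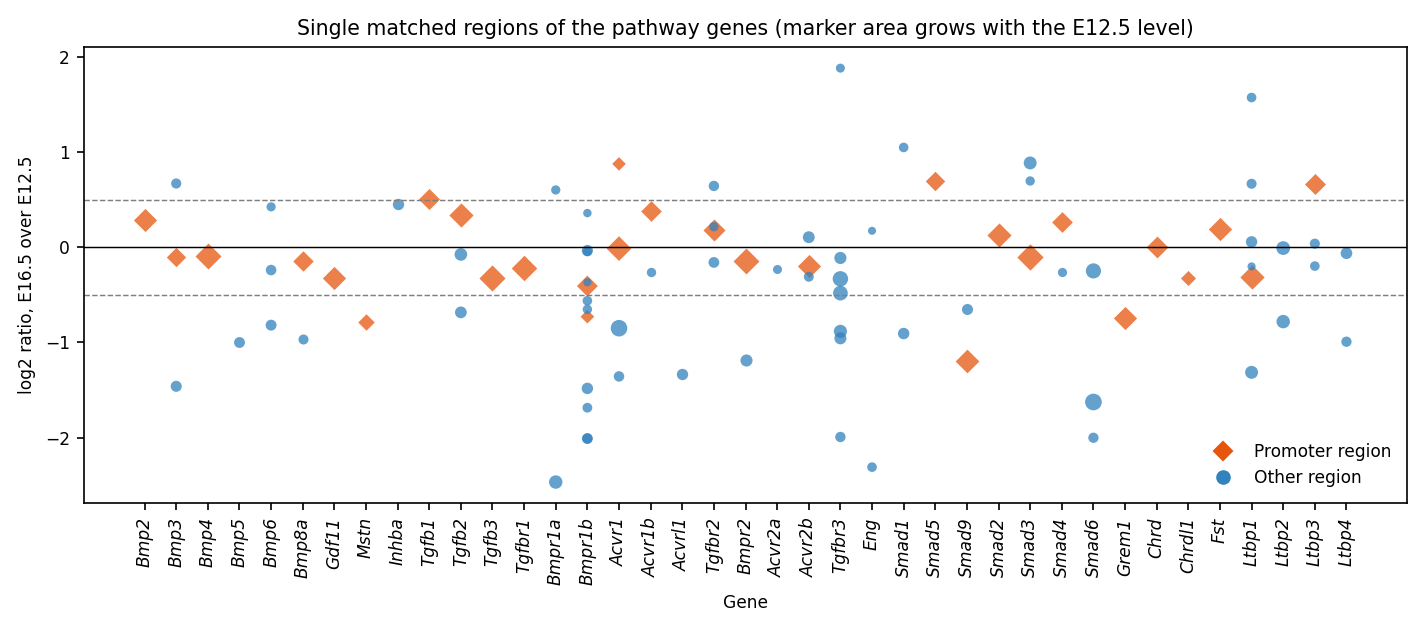
Log2 ratio of E16.5 over E12.5 for member regions matched in all 3 peak lists, with genes along the horizontal axis. Each point is 1 region with at least 100 fragment equivalents in every library, diamonds are promoter regions, circles other regions, marker area grows with the E12.5 level, and dashed lines mark -0.5 and 0.5. Circles spread more widely than diamonds, and the Bmpr1a (-2.47) and Tgfbr3 (1.88) regions mark the extremes.

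The motif letters were counted on both strands in 300-base windows. In RefSeq promoter windows of members, GGCGCC was in 11 of 39 (28.2%), against 12% of 32619 promoters. The 39 windows cover 31 of the 44 members, 5 of them with several windows, and the 11 belong to 9 members. CAGAC was in 48.7% against 49.5%, and GTCTAGAC in 1, at Smad6 (2.56% against 0.215%). In matched member regions within 1100 bp of a start site GGCGCC was in 33.3% against 26.3% of all such regions, and CAGAC in 40% against 46.8%. Away from start sites CAGAC was in 51.4% of 74 member windows against 55.9%, GGCGCC in 1.35% against 4.42%, and GTCTAGAC in 1. No overlap of 1 motif with another was removed, and a match describes letters only. GC-rich letters follow the base composition of a promoter, which was not adjusted for.

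To see whether the members differed among nuclei of 1 library, nuclei were gated on accessibility at panels of cartilage, tendon, fibroblast and dermal fibroblast genes. Nuclei above the 25th percentile of depth were scored by panel fragments over those expected from depth, and the top 10% were set against the rest. This gave 622 against 5598 nuclei at E12.5, 1502 against 13516 at E14.5 and 1054 against 9482 at E16.5. A gate is a range of a score and not a cell type, and 2.12% to 6.55% of scored nuclei lay within 0.25 score units of its edge. No member shared a peak with a panel gene. Both sets come from the same library and are counted over the same peaks. Which peaks count still depends on calling at all 3 stages, since the regions are those that the 3 lists share, and depth per nucleus differed between the sets, with a median of 12070 fragment equivalents in the E16.5 cartilage gate against 13490 in other nuclei.

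Genes held out of the panels showed how far each gate worked. In the E16.5 cartilage gate the cartilage genes Hapln1, Col11a1 and Sox9 lay at log2 ratios of 1.91, 0.98 and 0.70 between gated and other nuclei. In the E16.5 dermal fibroblast gate Lef1 and Axin2 lay at 0.54 and 0.36. The tendon gate raised Fmod (0.57) but not Mkx (-0.05), and the fibroblast gate had 0.41 for Pi16 and 0.16 for Col15a1. At E14.5 Hapln1 was at 0.52, Col11a1 at 0.39 and Sox9 at 0.14 in the cartilage gate. The E14.5 tendon gate had 0.32 for Fmod and 0.00132 for Mkx, and the E14.5 dermal fibroblast gate 0.30 for Lef1 and 0.26 for Axin2. The E14.5 fibroblast gate did not separate its held-out genes, with Pi16 at -0.03 and Col15a1 at 0.04 and intervals that include 0.

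At E12.5 the cartilage genes Hapln1, Col11a1 and Sox9 were at -0.08, 0.04 and 0.06, the tendon genes Fmod and Mkx at 0.16 and -0.14 and the fibroblast genes Pi16 and Col15a1 at 0.05 and 0.03. All 7 intervals include 0. In the E12.5 dermal fibroblast gate Lef1 was at -0.07 with an interval that includes 0, and Axin2 at 0.23. By their held-out genes, 3 of the 4 E12.5 gates and the E14.5 fibroblast gate thus did not separate nuclei, and member values in them are given as values only. Ly6a, also held out, had no gate ratio.

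In E16.5 nuclei gated on cartilage loci, Bmp5 stood apart from all other members. Its level was 64.0 CPM in gated and 23.9 CPM in other nuclei (1.42 [1.32, 1.53]), although over the whole library it was among the members lower at E16.5. Ltbp2 had 150 against 90.2 CPM (0.74) and Smad9 42.7 against 29.8 CPM (0.52). These 3 were called higher and 0 lower, where 4.71% of all genes were higher and 3.85% lower. The lowest members were Bmp3 (37.7 against 51.9 CPM, -0.46), Mstn (-0.46) and Bmp6 (119 against 149 CPM, -0.32). The median over members was 0.04 and over all genes 0.07. The gated nuclei had a median of 48.93% of their cuts at start sites against 43.95% in the others, and the part of this in the ratios was not tested. With start site peaks alone Bmp5 was at 1.17, Smad9 at 0.57 and Ltbp2 at 0.23.

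Nuclei gated on dermal fibroblast loci at E16.5 gave a different set. Mstn had 3.15 CPM against 7.33 in other nuclei (-1.22 [-1.65, -0.82]) and Bmp5 had 12.97 against 29.5 CPM (-1.18 [-1.39, -0.99]). Ltbp2 (66.8 against 99.6 CPM, -0.58) and Tgfb2 (85.2 against 121 CPM, -0.50) were also called lower, making 4 lower and 0 higher (3.98% and 2.92% of all genes). The highest members were the BMP antagonists Nog (79.9 against 57.2 CPM, 0.48) and Grem1 (36.8 against 27.2 CPM, 0.44) and the receptor Acvr2b (86.9 against 65.0 CPM, 0.42), all just under the call. Of the other pathway genes in this gate, the BMP antagonists Sost and Sostdc1 lay at 0.89 and 0.59 and Dcn at 0.60. In the cartilage gate Dcn was at -0.77, Lrrc32 at -0.56, Bmper at 0.59 and Twsg1 at 0.49.

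The tendon and fibroblast gates moved fewer members. In E16.5 nuclei gated on tendon loci Ltbp2 was called higher (137 against 91.4 CPM, 0.58), followed by Bmp5 (0.41) and Mstn (0.41), and the lowest were Inhbb (-0.27), Fst (-0.19) and Bmp7 (-0.16). The Ltbp2 call was lost in binarised counts and at start sites. Background shares in the tendon gate were 0.913% higher and 0.662% lower. In nuclei gated on fibroblast loci Bmp5 was called lower (19.9 against 28.7 CPM, -0.53), with Ltbp2 at -0.32 and Bmpr1b at -0.29, and the highest were Bmp3 (63.7 against 49.0 CPM, 0.38), Smad3 (0.16) and Chrdl1 (0.13). Over the library's own peaks the Bmp5 call was lost and 1 member was called higher. In the fibroblast gate 0.589% of all genes were higher and 1.17% lower.

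**Figure D4:**
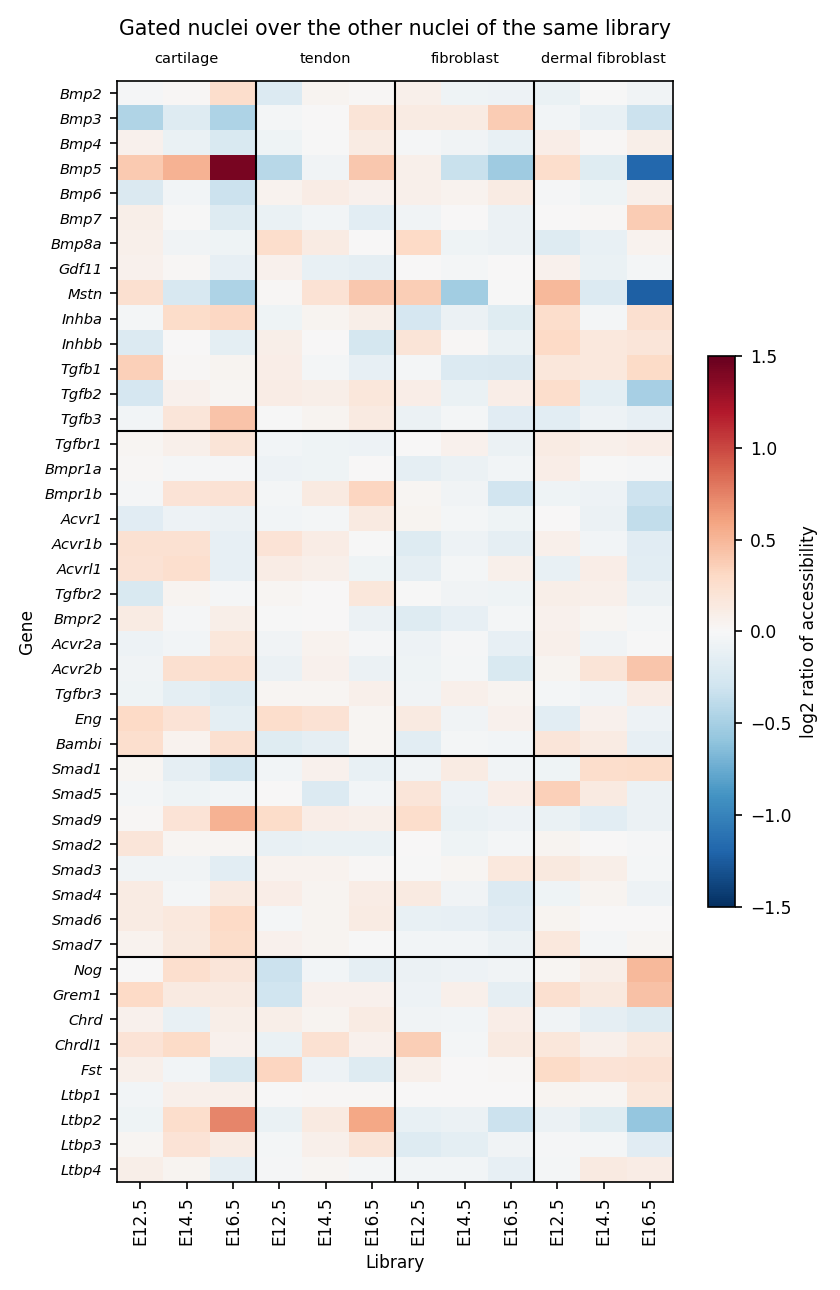
Log2 ratio of accessibility in gated over other nuclei of the same library for each member, with 1 column per gate and stage. Red is higher and blue lower in gated nuclei, on a log2 scale from -1.5 to 1.5, and black lines part the role groups. At E16.5 Bmp5 runs from 1.42 in the cartilage gate to -1.18 in the dermal fibroblast gate, while the E12.5 columns are pale, with members between -0.45 and 0.48.

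Earlier libraries showed little of this, in gates that were also weaker on most held-out genes. In the cartilage gate Hapln1 lay at 0.52 at E14.5 against 1.91 at E16.5, and Sox9 at 0.14 against 0.70. Stage and the strength of the gate therefore cannot be told apart in the member values. At E14.5, 1 pair of member and gate was called higher, Bmp5 in the cartilage gate (0.52), and 1 lower, Mstn in the fibroblast gate (-0.52), among all genes with 0.723% of pairs higher and 0.396% lower. After Bmp5 the cartilage gate had Chrdl1 (0.29) and Inhba (0.27) on top and Mstn (-0.24), Bmp3 (-0.20) and Tgfbr3 (-0.15) at the bottom. The tendon gate ran from Chrdl1 (0.22), Eng (0.21) and Mstn (0.21) to Gdf11 (-0.11), Bambi (-0.13) and Smad5 (-0.21). All of these are small next to the E16.5 values of the cartilage and dermal gates. The fibroblast gate ran from Bmp3 (0.13), Smad1 (0.12) and Tgfbr3 (0.07) to Tgfb1 (-0.20), Bmp5 (-0.33) and Mstn. The dermal fibroblast gate ran from Smad1 (0.27), Fst (0.21) and Acvr2b (0.19) to Ltbp2 (-0.18), Bmp5 (-0.18) and Mstn (-0.21).

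At E12.5 no member was called in any gate, against 0.669% of pairs of gene and gate higher and 0.534% lower over all genes. The cartilage gate ran from Bmp5 (0.39), Tgfb1 (0.36) and Eng (0.30) to Tgfbr2 (-0.23), Tgfb2 (-0.25) and Bmp3 (-0.45). The tendon gate ran from Fst (0.32), Smad9 (0.28) and Eng (0.26) to Grem1 (-0.30), Nog (-0.32) and Bmp5 (-0.41). These nuclei had the fewest counts, so the intervals were wide. The fibroblast gate ran from Mstn (0.37), Chrdl1 (0.37) and Bmp8a (0.30) to Ltbp3 (-0.20), Bmpr2 (-0.20) and Inhba (-0.25). The dermal fibroblast gate ran from Mstn (0.48), Smad5 (0.35) and Inhbb (0.30) to Tgfb3 (-0.15), Eng (-0.16) and Bmp8a (-0.19).

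The gene sums of the E16.5 gates were next taken apart into single peaks, a step chosen after the gene values had been seen. A peak needed 25 fragment equivalents in each set. The gated set is the smaller, so weak peaks could enter only when high in it, among members and all peaks alike. With a log2 ratio of 1 as the call, 25 of 245 member peaks were higher in the cartilage gate (10.2%) and 13 lower (5.31%), against 6.90% and 7.40% of 75695 peaks in shared regions. In the dermal fibroblast gate 13 of 228 were higher and 13 lower (5.7% each), against 8.00% and 5.57% of 75165 peaks. The tendon gate had 12 of 252 higher (4.76%) and 0 lower, against 3.23% and 0.885% of 77877 peaks. The fibroblast gate had 0 of 233 higher and 10 lower (4.29%), against 0.21% and 1.83% of 75641 peaks.

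Among peaks that passed the floor, the regions with the largest ratios in the cartilage gate lay in Tgfb2, Bmp5, Bmpr1b and Ltbp1, of which Bmp5 was the one called by its sum. The Tgfb2, Bmpr1b and Ltbp1 regions had 318, 222 and 276 cuts in gated nuclei and 259, 304 and 420 in the larger other set. They passed the floor through the gated set, so their rank follows in part from it. A Tgfb2 region 74304 bp from the start had 10.5 CPM in gated and 0.925 CPM in other nuclei at E16.5 (3.499 [3.16, 3.85]). It had 4.63 against 0.687 CPM at E14.5 (2.74) and 1.08 against 0.527 CPM at E12.5 (1.04, with an interval that includes 0). The values for the E14.5 library did not enter the choice of the region and lean the same way.

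A Bmp5 region 95377 bp inside the gene had 12.3 against 8.87 CPM at E12.5 (0.49), 16.1 against 7.85 CPM at E14.5 (1.04) and 21.3 against 2.66 CPM at E16.5 (3.001 [2.78, 3.22]). Since the E12.5 gate did not separate its held-out genes, the gated sets are not the same kind of nuclei at each stage, and the values are set side by side with no trend read from them. A second Bmp5 region at 6390 bp was at 2.25 at E16.5. With 183 cuts in gated and 358 in other nuclei, it also passed the floor through the gated set. A Bmpr1b region had 7.33 against 1.09 CPM at E16.5 (2.75), but 2.54 against 3.32 CPM at E14.5 and 6.51 against 7.18 CPM at E12.5, with no difference beyond the counting interval at the earlier stages. An Ltbp1 region upstream of the nearest annotated start of that gene had 2.03 against 0.605 CPM, 14.5 against 3.66 CPM and 9.11 against 1.499 CPM in order of stage, with a ratio of 2.60 at E16.5.

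The middle 200 bases of these regions are shown since they had the highest cartilage-gate ratios of the member regions that passed the floor. These stretches are intronic, read on the strand of the gene and lie at chr1:186631295-186631494 on the minus strand for Tgfb2, chr9:75870641-75870840 on the plus strand for Bmp5, chr3:142125555-142125754 on the minus strand for Bmpr1b and chr17:75151743-75151942 on the plus strand for Ltbp1. Capitals mark CAGAC as GTCTG on the other strand.
Tgfb2: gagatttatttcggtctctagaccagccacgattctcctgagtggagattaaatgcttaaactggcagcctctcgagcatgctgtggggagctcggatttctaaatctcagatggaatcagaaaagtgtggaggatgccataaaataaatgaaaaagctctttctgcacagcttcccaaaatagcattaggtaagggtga
Bmp5: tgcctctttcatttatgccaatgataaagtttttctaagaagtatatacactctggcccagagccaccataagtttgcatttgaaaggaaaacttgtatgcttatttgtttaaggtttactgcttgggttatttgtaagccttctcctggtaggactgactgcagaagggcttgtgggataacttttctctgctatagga
Bmpr1b: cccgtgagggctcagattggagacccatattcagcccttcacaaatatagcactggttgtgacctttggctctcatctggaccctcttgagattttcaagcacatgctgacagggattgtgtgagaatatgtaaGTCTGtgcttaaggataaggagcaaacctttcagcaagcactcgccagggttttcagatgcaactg
Ltbp1: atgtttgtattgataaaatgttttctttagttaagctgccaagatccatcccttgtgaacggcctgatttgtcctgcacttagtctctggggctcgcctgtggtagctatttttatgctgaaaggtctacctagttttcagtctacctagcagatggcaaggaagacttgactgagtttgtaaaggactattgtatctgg
Of the 4 windows, the Bmpr1b window alone held a searched motif. The window of the second Bmp5 region, which is not shown, held CAGAC at 2 places.

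In the dermal fibroblast gate the single E16.5 peaks with the highest ratios were in Bmpr1b (3.15 against 0.779 CPM, 2.01), Smad7 (2.90 against 0.746 CPM, 1.95) and Ltbp1. The Bmpr1b and Smad7 peaks passed the floor through the gated set, so their rank follows in part from it. Over the whole shared regions of the Bmpr1b and Smad7 peaks, which each hold 2 E16.5 peaks, Bmpr1b was at 1.18 and Smad7 at 0.21 [0.06, 0.36]. An Ltbp1 region 86415 bp from the start had 8.23 against 2.29 CPM at E16.5 (1.84) and 9.90 against 3.75 CPM at E14.5 (1.41), but at most 0.299 CPM in either set at E12.5. Another at 22038 bp had 14.8 against 4.24 CPM at E16.5 (1.81), and at most 1.33 CPM at the earlier stages. The Ltbp1 regions ranked highest in the cartilage and in the dermal gate were thus different ones. In the E16.5 fibroblast gate the dermal-ranked Ltbp1 peaks at 86415 and 22038 bp lay at -0.09 [-0.57, 0.36] and -0.65 [-1.06, -0.26]. Across stages each region was followed only in the gate that selected it. Whether any is particular to its gate was not tested.

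**Figure D5:**
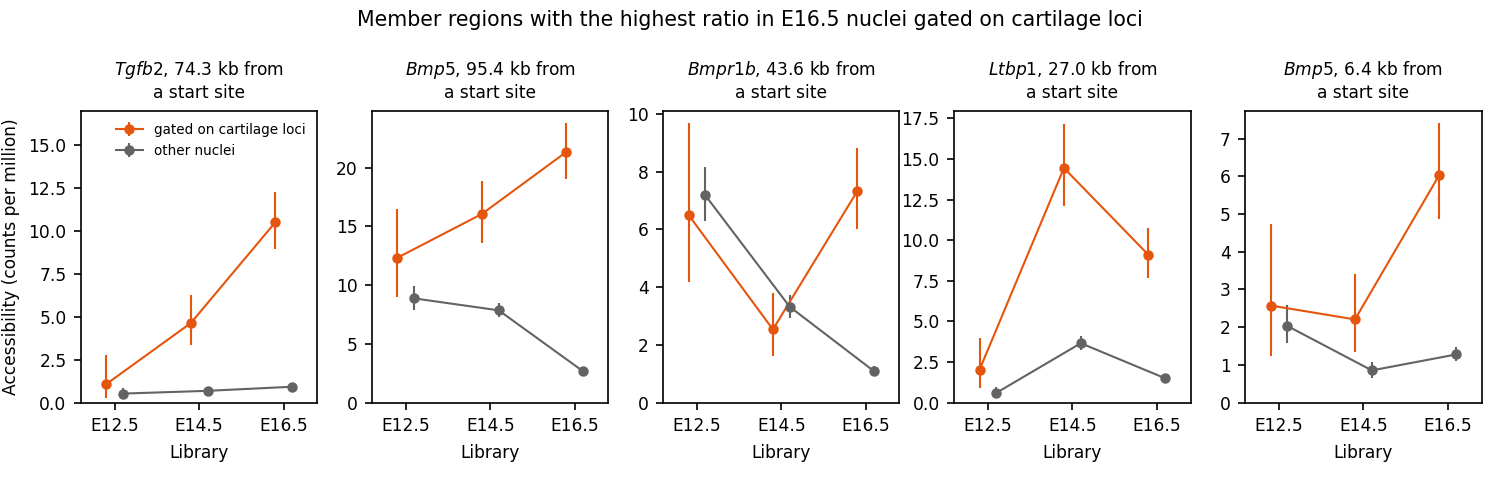
Accessibility of the 5 member regions with the largest E16.5 cartilage-gate ratios among those that passed the floor, in CPM, in gated and other nuclei of each library. Each point is 1 set of nuclei, vertical axes differ between panels, and bars are 95% Poisson intervals. In the Bmp5 region gated nuclei stand at 12.3 CPM at E12.5 and 21.3 CPM at E16.5, and other nuclei at 8.87 and 2.66 CPM.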

How the data were processed

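Single-nucleus ATAC-seq libraries had been processed by the authors with Cell Ranger ATAC (1.1.0 in the submitters' processing notes, with bcl2fastq; the matrix headers give 1.0.1 for E12.5 and E14.5 and 1.2.0 for E16.5) on mm10. The deposited files hold, per library, counts of transposase cuts per peak and nucleus, with peaks called in that library. About 1 fragment gives 2 counts, so intervals were computed on counts divided by 2. No doublet caller was run and all deposited barcodes were kept (213 barcodes were shared by E12.5 and E14.5, 151 by E12.5 and E16.5, 401 by E14.5 and E16.5, and 6 by all 3).

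Peaks of the 3 lists were merged into 266515 regions, of which 84647 were shared and held 86.5%, 97.7% and 81.7% of the counts. Member peaks met the gene body or 2000 bp upstream. Counts in shared regions were divided by those in shared autosomal regions. A start site peak lay within 1000 bp upstream and 100 bp downstream. Ratios carry exact 95% conditional binomial intervals (Clopper-Pearson), which cover counting error only. In gated nuclei a gene or a single peak needed 25 fragment equivalents in each set. Members and gene lists were chosen with earlier results of these data known. Values are given for members past a log2 ratio of 0.5 in any step, for the highest and lowest of each role group, for those that change sign, for the 3 highest and 3 lowest per gate and for the regions with the largest rise and fall per group. The ratio calculation was run on simulated Poisson counts, which did not include separate peak calling, peak width or library differences and so says nothing about those. Sequences came from RefSeq GRCm38.p6; 0 of 506466 peaks ran past a chromosome end there. Python 3.11.15, numpy 2.4.6, pandas 2.3.3, scipy 1.17.1 and matplotlib 3.10.9 were used. Alternatives changed the peaks counted, the scaling, the called width, the deepest nuclei and the gate size. 1 gene of the wider pathway list is not reported here.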

Additional observations from a re-analysis of the deposited data

Results flagged for a closer look

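In nuclei gated on dermal fibroblast loci, 3 ligands lay on opposite sides of 0 in the E16.5 and the E12.5 library, each with a counting interval that left out 0. Bmp5 had a log2 ratio of gated over other nuclei of -1.18 at E16.5 and 0.266 at E12.5. Mstn had -1.22 at E16.5 and 0.484 at E12.5. For Tgfb2 the values were -0.5 and 0.26. At E14.5 they lay between these, at -0.18, -0.21 and -0.15. Of the genes held out of that gate, Lef1 at E12.5 was at -0.07 with an interval that includes 0 and Axin2 at 0.23, so the E12.5 gate separated nuclei weakly. Each stage had 1 library, so the difference between stages was not tested.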

How the results depend on the processing

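With 1 library per stage there were no replicates to leave out and no test to lose. No paired analysis was possible because each group held 1 library. For members called on the main scale, 296 of 316 alternative stage values kept the direction of the main value and 20 reversed, while of all 44 members 15, 15 and 23 kept their sign under every alternative in the 3 steps in the order given below. All 53 gated values kept their direction. Peaks were called per library, and scaling per kb of called width moved the median of all genes to 0.50, -0.68 and -0.19 in the 3 steps. The cause of the other shifts was not tested.

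From E12.5 to E14.5 the member median was 0.507 per kb, -0.0997 with median-ratio scaling and 0.275 at start sites. The number higher was 22 per kb (49.3% of all genes), 1 with median-ratio scaling (4.3%) and 3 with 10000 bp upstream (10.4%), and the number lower was 1 per kb (0.488%). Reversed were, per kb, where the median gene was at 0.496, Bmp5 (0.636), Nog (0.721), Chrdl1 (0.591) and Ltbp2 (0.00382, below that gene), in matched regions Acvr2a (-0.265) and Chrdl1 (0.219), and at start sites Eng (0.33) and Chrdl1 (0.219).

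From E14.5 to E16.5 the median was 0.0731 over each library's own peaks, -0.753 per kb, -0.297 in matched regions, 0.0434 with median-ratio scaling, -0.249 at start sites and -0.171 in peaks that reach no other gene. The number higher was 9 over own peaks (16.9% of all genes), 0 per kb (0.324%), 0 in matched regions (3.5%), 5 with median-ratio scaling (12.8%), 4 at start sites (5.76%) and 1 with 10000 bp upstream (8.98%). The number lower was 2 over own peaks (5.44%), 38 per kb (76.1%), 8 in matched regions (13.8%), 2 with median-ratio scaling (3.49%) and 3 with 10000 bp upstream (8.22%). Reversed were Acvr1b (-0.775 per kb, -0.021 in matched regions, -0.0892 at start sites), Eng (-0.629 per kb, -0.302 in matched regions, -0.277 in peaks that reach no other gene) and Chrdl1 (1.11 over own peaks).

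Between the first and last stage the median was 0.0857 over own peaks, -0.239 per kb, -0.22 in matched regions and -0.0174 without the deepest nuclei. The number higher was 0 per kb (2.19% of all genes), 2 in matched regions (5.98%) and 3 with 10000 bp upstream (9.32%), and 3 were lower at start sites (10.5%). Group medians moved to -0.225 per kb for ligands. For receptors they were 0.0925 over own peaks, -0.337 per kb, -0.276 in matched regions and 0.137 at start sites. For Smads they were 0.197 over own peaks, 0.153 in matched regions, 0.0922 without the deepest nuclei and -0.137 at start sites. Extracellular regulators gave -0.235 per kb, -0.114 in matched regions, -0.104 in binarised counts and -0.135 with 10000 bp upstream. Reversed were Acvr1b (-0.376 per kb), Tgfbr2 (-0.101 per kb), Acvr2a (-0.229 in matched regions), Smad3 (-0.104 at start sites) and Ltbp2 (0.336 at start sites).

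Shares of all genes called in the gates were computed for the main setting alone. The counts below therefore have no background and are not read as shifts of the members. In the gates, the top 5% of nuclei gave 3 higher and 2 lower pairs at E12.5 and 2 and 2 at E14.5. Start site peaks gave 2 higher at E12.5 and 2 higher and 0 lower at E14.5. At E14.5 all deposited nuclei gave 0 and 0, and binarised counts 0 lower. At E16.5 the cartilage gate had 2 lower with the top 5% and 1 over own peaks. The tendon gate had 2 higher with the top 5%, 2 over own peaks, 0 in binarised counts and 0 at start sites. The fibroblast gate had 1 higher and 0 lower over own peaks. The dermal fibroblast gate had 2 higher with the top 5% and 1 at start sites, and 2 lower in binarised counts.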
